A study of Mus musculus with 4 samples.

Results

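The genes described here encode the route from glucose to lactate and the cell's response to low oxygen: glucose transporters, glycolytic enzymes, lactate dehydrogenases and lactate transporters, regulators of glycolytic flux, and parts and targets of the hypoxia-inducible factor (HIF) system. They were chosen by name. Of 34 names, 29 were measured on the arrays, among 22180 genes in all. Gpi1, Aldoa, Eno1, Pfkfb1 and Ankrd37 were not analysed here. Gene expression was measured in synovium, the lining tissue of joints, taken around the ankle of male C57BL/6J mice aged 12 weeks. The nonarthritic group was 2 pools of 3 mice each, given the same volume of sterile phosphate buffered saline, and the arthritic group was 2 pools of 10 mice each, injected into the peritoneum with 150 microlitres of serum from arthritic mice 3 times (days 0, 2 and 7) and labelled as peak inflammation on day 10. All 4 pools carry the label K/BxN for the serum's source strain, which for the nonarthritic pools conflicts with the saline, and the nonarthritic pools are labelled day 0. Serum from arthritic K/BxN mice holds autoantibodies that inflame the joints of recipients, so the arthritis begins without the recipient's own autoimmune T cell response. Labelled day and pool size cannot be told apart from arthritis. Each pool was 1 array. Replicates are separate pools, so p-values measure the spread between pools and not between mice.

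Glycolysis turns glucose into pyruvate in the cytosol, first spending ATP in preparatory steps and then regaining it in payoff steps. When oxygen is short, or in activated leukocytes and fibroblasts even when it is not, pyruvate is reduced to lactate, which leaves the cell through monocarboxylate transporters. Prolyl hydroxylases mark HIF-1 alpha for destruction when oxygen is present, and when it is scarce the protein persists and drives many glycolytic genes. Several glycolytic steps are run by different isoforms in different tissues, and skeletal muscle has its own forms of phosphofructokinase, phosphoglycerate mutase and enolase. The inflamed joint is known for low oxygen and high lactate. HIF-1 alpha is controlled largely as a protein, which arrays do not measure.

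In arthritic synovium, genes of glucose uptake, glycolysis, lactate transport and hypoxia changed in both directions. Of the 29 measured genes, 7 rose, 6 fell and 16 did not pass the test, where a gene rose or fell when its adjusted p was under 0.05 in limma (a linear model fitted to all 22180 genes, with Benjamini-Hochberg adjustment over all of them). Over all genes, 15.3% passed, 8.72% rising and 6.62% falling. Of the members, 5 rose and 4 fell by at least 2-fold, against 3.46% and 3.11% of all genes. The 7 that rose were Hk3, Pfkl, Slc16a1, Slc2a3, Slc16a3, Pgam1 and Hif1a, and the 6 that fell were Eno3, Egln3, Pfkm, Pgam2, Bnip3 and Ndrg1. The median log2 fold change was 0.06 over the 29 genes and 0.00 over all genes. Both arthritic pools lay above both nonarthritic pools in 12 genes (30.2% of all genes) and below them in 9 (26.1%), and the groups overlapped in 8; over all genes 56.4% did not overlap. The counts depended on each pool: 2 rose and 2 fell without nonarthritic pool 1, 0 rose and 1 fell without nonarthritic pool 2, 1 rose and 2 fell without arthritic pool 1, and 0 rose and 0 fell without arthritic pool 2. At an unadjusted p under 0.05, 9 were higher without nonarthritic pool 2, and 6 were higher and 6 lower without arthritic pool 2. In these limma fits a group of 1 pool was assumed to vary like the other group. Below, values of single pools are log2 signals given first for the nonarthritic pools 1 and 2 and then for the arthritic pools 1 and 2, and positive changes stand for more signal with arthritis.

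**Figure D1:**
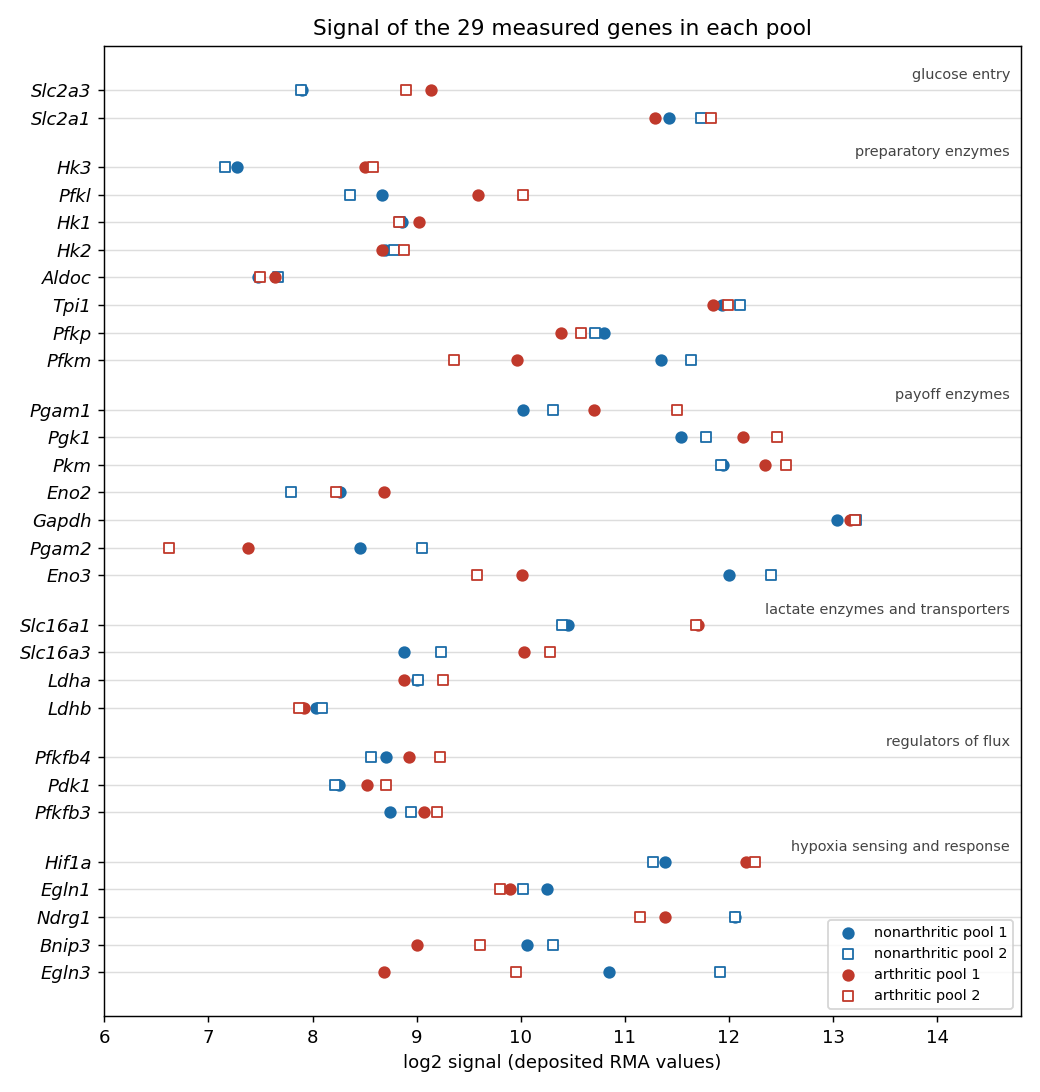
Log2 signal (horizontal axis) of the 29 measured genes (rows, grouped by role) in each of 4 pools; blue marks the nonarthritic and red the arthritic pools, and circles and squares mark pools 1 and 2. The arthritic pools lie to the right for Slc16a1 and Slc16a3 and to the left for Pfkm, Pgam2, Eno3 and Egln3, and positions can be compared within a row only.

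The arrays were alike in level and the tissue carried synovial markers, some of which changed. Array medians over all probe sets ran from 6.96 to 7.15. The mean log2 signal of 10 synovial fibroblast genes was 11.03 to 11.42 in the 4 pools, with 3 of the 10 rising and 3 falling. Of 9 cell cycle genes, 8 rose. Markers of other tissues differed between the groups: 22 of 26 skeletal muscle genes and 8 of 8 fat cell genes fell, and 7 of 12 neutrophil genes rose. Without arthritic pool 2, no cell cycle gene rose in limma, with 8 higher at an unadjusted p under 0.05, and without nonarthritic pool 2 or arthritic pool 1, 3 and 5 rose. With pools left out, 0 (without arthritic pool 2, with 4 higher at an unadjusted p under 0.05) to 2 synovial fibroblast genes rose and 0 (without either nonarthritic pool, with 3 and 4 lower) to 2 fell. Likewise, 3 (without arthritic pool 2) to 7 neutrophil genes rose and 3 (without arthritic pool 2) to 7 fat cell genes fell. In bulk tissue, fewer cells of a type and less RNA per cell cannot be told apart. Olfactory receptor genes, which synovium is not expected to use, set a background: the 95th percentile of 1105 such genes was 6.86, 7.36, 6.77 and 6.94 on the 4 arrays. Where a group lies near these values, the fold change can understate the difference.

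Both lactate transporters among the members, Slc16a1 and Slc16a3, rose. Slc16a1, which encodes MCT1, a transporter that carries lactate in either direction, read 10.45, 10.40, 11.70 and 11.68. The pools of each group lay almost on top of each other and the groups were far apart. Slc16a1 rose 2.40-fold (1.26 ± 0.15 SE on the log2 scale, adjusted p = 0.00153). Slc16a3, which encodes MCT4, the exporter typical of highly glycolytic cells, read 8.88, 9.23, 10.03 and 10.28. Both arthritic pools were again above both nonarthritic ones, and Slc16a3 rose 2.14-fold (1.10 ± 0.19 SE, adjusted p = 0.00679). With a pool left out, the adjusted p of Slc16a1 ran from 0.0365 (without nonarthritic pool 1) to 0.0697 (without arthritic pool 2), and that of Slc16a3 from 0.0718 (without nonarthritic pool 2) to 0.137 (without arthritic pool 2).

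The enzymes that interconvert pyruvate and lactate did not pass the test. Ldha, the subunit that favours lactate formation, read 9.0, 9.01, 8.88 and 9.25, so that the arthritic pools fell on either side of the nonarthritic ones. Its log2 fold change was 0.06, with a 95% interval from -0.35 to 0.47 (adjusted p = 0.875). Ldhb, the heart-type subunit, had a log2 fold change of -0.16, with a 95% interval from -0.52 to 0.19. Neither interval reaches the estimate of the smallest called rise among the members, 0.88 for Hif1a.

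Partners of lactate transport were counted from a separate list of 6 genes, of which 1 rose and 1 fell. Emb, which encodes embigin, a membrane chaperone of monocarboxylate transporters, rose by 1.24 ± 0.16 SE on the log2 scale (adjusted p = 0.00178), from 10.91 and 10.82 to 12.07 and 12.14. Bsg, which encodes basigin, the usual chaperone of MCT1 and MCT4, had a log2 fold change of 0.07 ± 0.15 SE from a high signal of 12.10 to 12.19 in the 4 pools. Slc16a7, which encodes MCT2, a high-affinity form, had a log2 fold change of -0.68 (adjusted p = 0.0288, 0.0532 with the pool number as a block and 0.0529 with arrays centred on their medians). The call for Emb was kept without nonarthritic pool 1 and lost with any of the other three pools left out, and that for Slc16a7 was lost with any pool left out.

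Glucose entry differed between its transporters. Slc2a3, which encodes GLUT3, a high-affinity transporter of neurons and leukocytes, read 7.90, 7.89, 9.14 and 8.90. The nonarthritic pools were equal within 0.01 and the arthritic pools lay clearly higher, and Slc2a3 rose 2.18-fold (1.12 ± 0.16 SE on the log2 scale, adjusted p = 0.00348, and 0.0534 to 0.0873 with a pool left out). Slc2a1, which encodes GLUT1, the widespread basal transporter and a known HIF target, read 11.42, 11.73, 11.29 and 11.83. The pools of both groups were interleaved. Its log2 fold change was -0.01, with a 95% interval from -0.52 to 0.49. Of 9 other glucose transporter genes, 1 passed: Slc2a4, which encodes GLUT4, the insulin-dependent transporter of muscle and fat, fell by 2.16 on the log2 scale (adjusted p = 0.000463), from 9.95 and 10.35 to 8.13 and 7.85. That call was lost when arthritic pool 2 was left out.

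Among the hexokinases, which trap glucose as its phosphate, Hk3 alone passed the test. Hk3, the isoform of myeloid cells, read 7.27, 7.16, 8.50 and 8.58 and rose 2.51-fold (1.32 ± 0.16 SE on the log2 scale, adjusted p = 0.00136, and 0.0338 to 0.0712 with a pool left out). Its nonarthritic signal was near the olfactory receptor background. Hk1, the housekeeping form, had a log2 fold change of 0.08 with a 95% interval from -0.29 to 0.44, and Hk2, the inducible form of muscle, fat and activated cells, of 0.04 with an interval from -0.34 to 0.41. These intervals do not overlap that of Hk3, 0.96 to 1.69, but the differences between the isoforms were not tested. Neutrophil markers moved with Hk3 and Slc2a3: the summed linear signal of 12 such genes was 1613 to 2005 in the nonarthritic and 12145 to 13874 in the arthritic pools. The receptors Cxcr2 and Csf3r rose by 3.63 and 3.01 on the log2 scale, while 5 of the 12 did not pass, among them the granule genes Mpo (0.14) and Elane (-0.10), which stayed under the olfactory receptor 95th percentile. Of 10 macrophage genes 4 rose and 1 fell, and at most 1 rose with a pool left out (1 without nonarthritic pool 1, 0 without any other, with 3 to 5 higher at an unadjusted p under 0.05 in limma). The part of these cells in the results for Hk3 and Slc2a3 was not tested.

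The phosphofructokinase isoforms moved in opposite directions. This enzyme commits sugar to glycolysis. Pfkl, the liver-type subunit that leukocytes also use, read 8.67, 8.36, 9.59 and 10.02. All arthritic values were higher, and Pfkl rose 2.45-fold (1.29 ± 0.20 SE on the log2 scale, adjusted p = 0.00482, and 0.0522 to 0.119 with a pool left out). Pfkm, the muscle subunit, read 11.35, 11.64, 9.96 and 9.36. It fell by 1.83 on the log2 scale (adjusted p = 0.00166), a 3.57-fold difference. Its adjusted p was 0.0446 without nonarthritic pool 1, 0.0369 without arthritic pool 1, 0.0888 without nonarthritic pool 2 and 0.0710 without arthritic pool 2. Pfkp, the platelet-type subunit, had a log2 fold change of -0.27 with a 95% interval from -0.64 to 0.10.

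Phosphoglycerate mutase and enolase, payoff enzymes that prepare the last ATP-yielding step, fell in their muscle forms. Eno3, the muscle enolase, read 12.00, 12.40, 10.01 and 9.58. It fell by 2.40 ± 0.21 SE on the log2 scale, a 5.30-fold difference and the largest of the 29 genes (adjusted p = 0.000431). Its adjusted p was 0.0236, 0.0451 and 0.0353 without nonarthritic pool 1, nonarthritic pool 2 and arthritic pool 1, and 0.0574 without arthritic pool 2. Pgam2, the muscle mutase, read 8.46, 9.05, 7.38 and 6.62. It fell by 1.75 on the log2 scale (adjusted p = 0.00563, and 0.0539 to 0.146 with a pool left out; 0.0609 with the pool number as a block). Its signal in arthritic pool 2 lay under the olfactory receptor 95th percentile, so the 3.38-fold difference may be an understatement.

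The measured forms outside muscle were Pgam1, which rose, and Eno2, which did not pass. Pgam1, the mutase of most tissues, read 10.02, 10.31, 10.70 and 11.50. The arthritic pools were higher but stood 0.80 apart, and the rise of 0.94 ± 0.26 SE passed narrowly (adjusted p = 0.0486). It did not pass with the pool number as a block (0.0531), after quantile normalization again (0.0935) or with a pool left out (0.0640 to 0.276). Pgam1 had 2 probe sets. The kept one has a number among probe sets of genes on chromosome 3, whereas the gene lies on chromosome 19, so it may read a near-identical copy. The other, numbered among chromosome 19 genes, read 9.25, 9.29, 10.11 and 9.85, a difference of 0.71. Eno2, the enolase of neurons, read 8.26, 7.79, 8.69 and 8.23 and its groups overlapped (log2 fold change 0.43, adjusted p = 0.248).

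Set against the other isoforms of the same enzyme, the change of the muscle form differed by -2.34 for phosphofructokinase, -2.69 for phosphoglycerate mutase and -2.84 for enolase on the log2 scale. For enolase the other form was Eno2 alone, since Eno1 was not analysed. For the mutase it was the kept Pgam1 probe set, which may read a near-identical copy. With the probe sets of a gene averaged, the mutase value was -2.58. The mean of the 3 families was -2.62, and it ran from -3.03 to -2.22 with a pool left out. These are differences of changes, described without a test, since the families were chosen by isoform with results known. Markers of skeletal muscle moved with them. Their summed linear signal was 61579 and 80224 in nonarthritic pools 1 and 2 and 10252 and 7847 in arthritic pools 1 and 2. Of the 26 markers, 22 fell, with a median log2 fold change of -2.84, and 4 did not pass, the slow-fibre genes Myh7, Tnnt1, Tnni1 and Tnnc1. Myh7 was under the olfactory receptor 95th percentile in every pool. Tnnt1 was near it, at 7.25, 7.25, 7.11 and 7.26. Tnni1 and Tnnc1 were also dim, with nonarthritic means of 7.73 and 7.96. Among the most abundant, skeletal actin, Acta1, changed by -2.33 and the calcium pump gene Atp2a1 by -3.13 on the log2 scale. With pools left out, 13 (without arthritic pool 2) to 21 markers fell. The order of the pools was also shared: Pfkm, Pgam2 and Eno3 were each highest in nonarthritic pool 2 and lowest in arthritic pool 2, as was the mean of the muscle markers (10.51, 10.86, 8.29 and 7.92). The part of muscle content in the falls of Pfkm, Pgam2 and Eno3 was not tested.

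**Figure D2:**
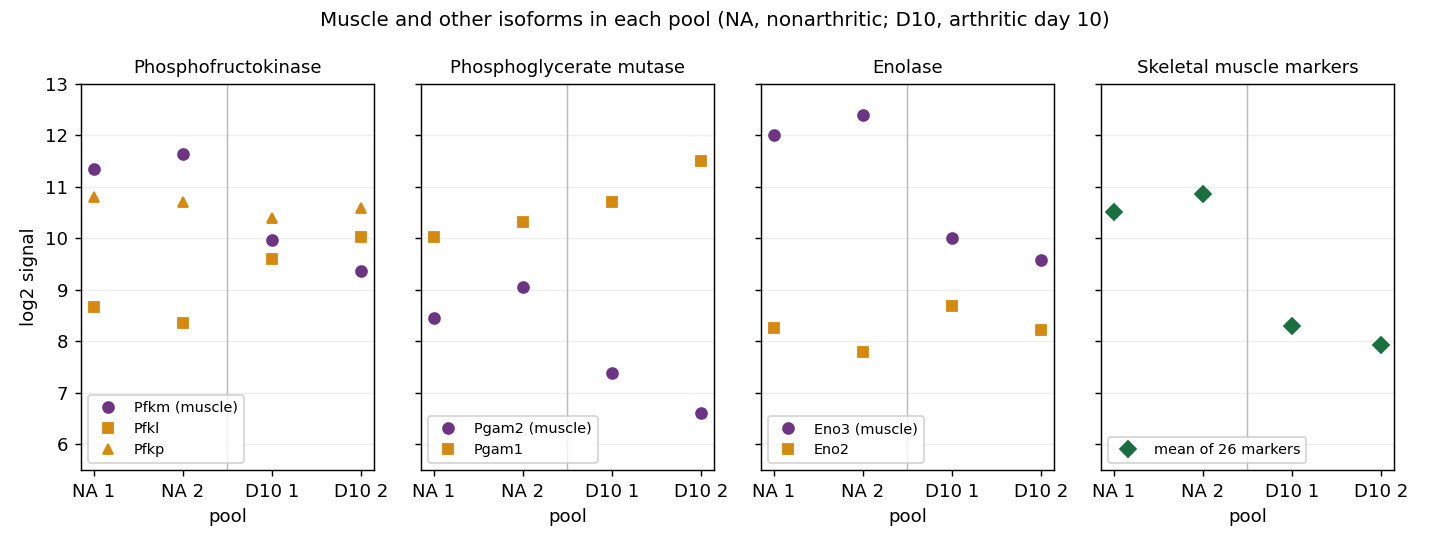
Log2 signal (vertical axis) of muscle isoforms (purple) and other isoforms (orange) of 3 glycolytic enzymes in each pool, with the mean of 26 skeletal muscle markers (green) in the right panel. Pfkm, Pgam2 and Eno3 drop between the nonarthritic (NA) and arthritic (D10) pools alongside the markers, while Pfkl and Pgam1 are higher in the arthritic pools; levels of different genes are not comparable.

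The remaining enzymes of the main line did not pass. Pgk1, the first ATP-yielding enzyme and a known HIF target, read 11.54, 11.78, 12.13 and 12.46. Its groups did not overlap and its log2 fold change was 0.63 ± 0.18 SE, just outside the threshold (adjusted p = 0.0540). Pkm, the pyruvate kinase of muscle and of most dividing and immune cells, read 11.94, 11.92, 12.35 and 12.55, with a log2 fold change of 0.52 ± 0.16 SE (adjusted p = 0.0670). Both passed when arrays were centred on their medians (adjusted p = 0.0238 and 0.0425), after removal of dim genes (0.0308 and 0.0410) and with a variance prior that follows the signal (0.0186 and 0.0147). The single value per gene does not tell the splice forms of Pkm apart. Tpi1, triose phosphate isomerase, had a log2 fold change of -0.10 with a 95% interval from -0.48 to 0.28, and the aldolase of brain, Aldoc, of -0.01.

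Gapdh, an enzyme often used as a reference gene, read 13.04, 13.22, 13.16 and 13.21. Its log2 fold change was 0.05, with a 95% interval from -0.31 to 0.42. The kept probe set is numbered among genes of chromosome 11 while Gapdh lies on chromosome 6, and Gapdh has many near-identical copies, so the value may mix several loci. A further Gapdh probe set, numbered among chromosome 5 genes, gave a difference of 0.01. Another, dimmer one, numbered mostly among chromosome Y genes, gave -0.06. None of the Gapdh probe sets was numbered among chromosome 6 genes.

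**Figure D3:**
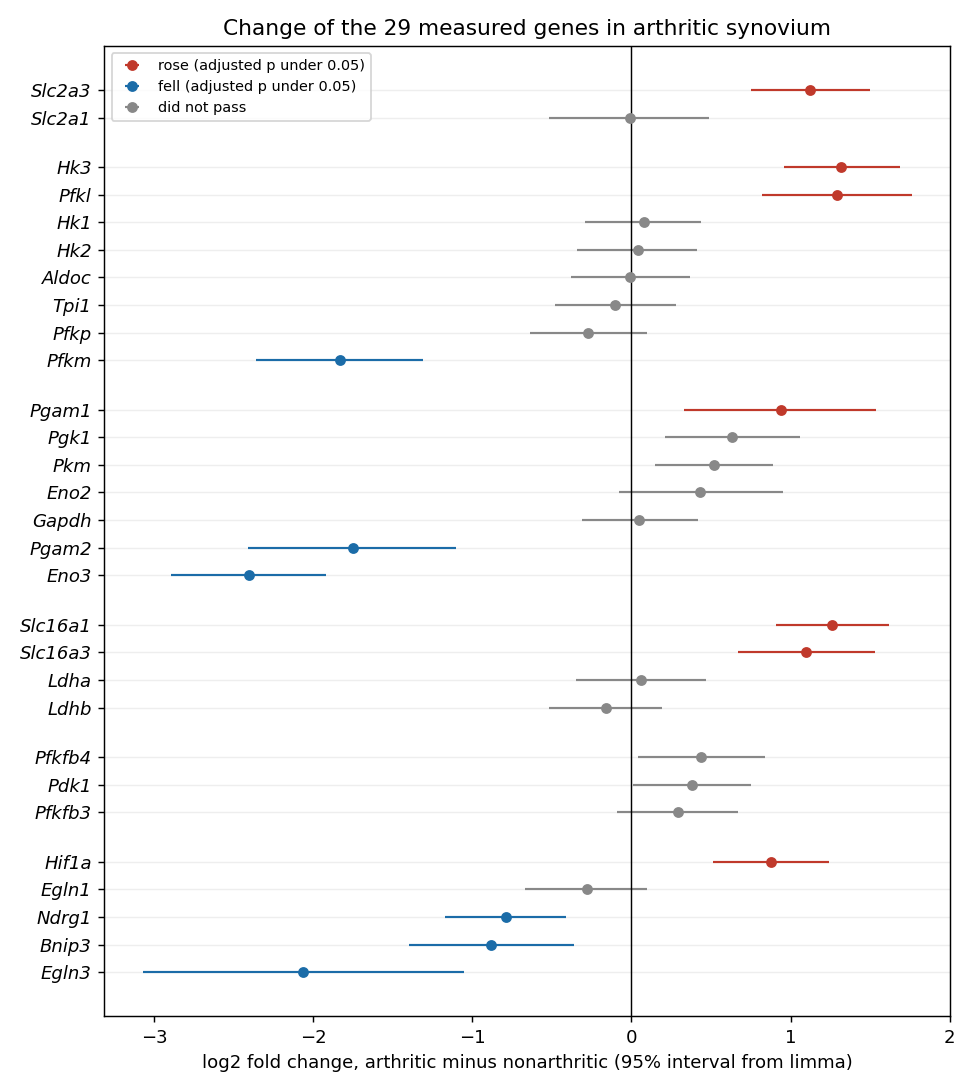
Log2 fold change (horizontal axis, arthritic minus nonarthritic, bars 95% intervals from limma) of the 29 measured genes in the role order of the plot of signals; red rose, blue fell and grey did not pass. The intervals of Slc16a1 (0.91 to 1.62) and Hk3 lie wholly above 0, those of the muscle isoforms wholly below, and those of Gapdh, Ldha, Hk1, Hk2 and Slc2a1 straddle it.

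None of the 3 measured regulators of glycolytic flux passed in limma, with 2 higher at an unadjusted p under 0.05. Pfkfb3 and Pfkfb4 make fructose 2,6-bisphosphate, the strongest activator of phosphofructokinase. Pdk1 inhibits the pyruvate dehydrogenase complex, which uses pyruvate inside mitochondria. Pfkfb4 read 8.71, 8.56, 8.93 and 9.22, Pfkfb3 read 8.74, 8.95, 9.07 and 9.20, and Pdk1 read 8.25, 8.22, 8.52 and 8.71. In all 3 the arthritic pools lay above the nonarthritic ones, as in 30.2% of all genes. The log2 fold changes were 0.44, 0.29 and 0.38, with adjusted p of 0.134, 0.295 and 0.160.

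In the HIF system, the gene of the oxygen-regulated subunit rose. Hif1a read 11.39, 11.27, 12.16 and 12.25 and rose 1.83-fold (0.88 ± 0.16 SE on the log2 scale, adjusted p = 0.00868, and 0.0591 to 0.124 with a pool left out). A dimmer probe set numbered among genes of the opposite strand gave a difference of 0.83. Egln1, which encodes PHD2, the main oxygen sensor that marks HIF-1 alpha, read 10.25, 10.02, 9.90 and 9.80, with a log2 fold change of -0.28 (adjusted p = 0.305). Of 7 other genes of the system, none passed in limma, with 1 lower and 0 higher at an unadjusted p under 0.05. Epas1, the gene of HIF-2 alpha, was at -0.26, and Arnt, the shared partner subunit, at 0.21.

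Of the 5 measured members of hypoxia sensing and response, 3 fell: Egln3, Bnip3 and Ndrg1. Hif1a rose and Egln1 did not pass. Among the other members, the known HIF targets Slc2a1 and Pgk1 did not pass. Hk3, Pfkl, Slc16a1, Slc2a3, Slc16a3 and Pgam1 rose, and Eno3, Pfkm and Pgam2 fell. Which of these genes HIF drives in this tissue was not tested. Egln3, which encodes PHD3, a hydroxylase that HIF itself induces, read 10.85, 11.91, 8.69 and 9.95. The arthritic pools were below the nonarthritic ones, but the pools of each group stood more than 2-fold apart. Egln3 fell by 2.06 ± 0.44 SE on the log2 scale (adjusted p = 0.0175, and 0.0743 to 0.254 with a pool left out). Bnip3, a HIF target that directs mitochondria to autophagy, read 10.06, 10.31, 9.0 and 9.61 and fell by 0.88 on the log2 scale (adjusted p = 0.0347, and 0.0923 to 0.296 with a pool left out). Ndrg1, a stress-response gene that hypoxia induces in many cells, read 12.06, 12.06, 11.39 and 11.15 and fell by 0.79 (adjusted p = 0.0157, and 0.0824 to 0.157 with a pool left out). A dimmer Ndrg1 probe set, also numbered among opposite-strand genes, gave -0.04, and the call ended when both were averaged (adjusted p = 0.190). Egln3 and Bnip3 were higher in pool 2 than in pool 1 in both groups, whereas the mean of the muscle markers was higher in nonarthritic pool 2 and lower in arthritic pool 2. Ndrg1 was equal in the nonarthritic pools and lower in arthritic pool 2. The summed linear signal of fat cell markers was 22657 to 22995 in the nonarthritic and 4620 to 6503 in the arthritic pools. The part of muscle and fat cells in the falls of Egln3, Bnip3 and Ndrg1 was not tested.

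The letters that HIF binds stood in promoters of genes that rose, of genes that fell and of genes that did not pass. The motif searched was ACGTG, the core of the hypoxia response element (reverse strand CACGT), with its variant GCGTG (reverse strand CACGC), on both strands of the 250 bases before each RefSeq transcript start (build GRCm38.p6). The palindrome CACGTG counts as 2 matches, and neighbouring matches may overlap. Of the 29 genes, 27 had a promoter in the table. ACGTG stood in 15 of them, against 18.5% of all 27025 genes: in 5 of 6 that rose, 3 of 5 that fell and 7 of 16 that did not pass. GCGTG stood in 17 of the 27, against 30.9% of all genes. The list was chosen to include HIF targets, and the genes were not matched for base composition. A share above that of all genes is therefore no result of these arrays. A match is a description of letters and no evidence of binding in this tissue. Shown are a gene that rose (Slc16a3), 2 that did not pass (Pgk1 and the first listed start of Ldha) and 2 that fell (Bnip3 and Egln3), each read 5′ to 3′ toward the gene with matches to either motif on either strand in capitals.
Slc16a3, chr11:120948817-120949066, plus strand: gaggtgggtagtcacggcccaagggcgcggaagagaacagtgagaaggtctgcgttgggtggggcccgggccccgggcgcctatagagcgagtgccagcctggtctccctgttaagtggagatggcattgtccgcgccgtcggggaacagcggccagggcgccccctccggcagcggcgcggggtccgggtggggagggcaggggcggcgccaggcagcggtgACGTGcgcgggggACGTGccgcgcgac
Pgk1, chrX:106186850-106187099, plus strand: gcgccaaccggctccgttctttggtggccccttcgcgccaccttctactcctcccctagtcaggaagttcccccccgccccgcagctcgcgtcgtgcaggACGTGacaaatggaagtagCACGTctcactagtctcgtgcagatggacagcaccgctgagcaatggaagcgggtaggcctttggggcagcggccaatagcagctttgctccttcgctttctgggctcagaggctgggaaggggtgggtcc
Ldha, chr7:46845554-46845803, plus strand: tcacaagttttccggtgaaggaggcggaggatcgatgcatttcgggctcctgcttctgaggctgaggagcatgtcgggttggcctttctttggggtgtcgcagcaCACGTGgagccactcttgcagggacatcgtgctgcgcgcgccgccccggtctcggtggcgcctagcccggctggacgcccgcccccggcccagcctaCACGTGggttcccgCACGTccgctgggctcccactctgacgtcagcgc
Bnip3, chr7:138909507-138909756, minus strand: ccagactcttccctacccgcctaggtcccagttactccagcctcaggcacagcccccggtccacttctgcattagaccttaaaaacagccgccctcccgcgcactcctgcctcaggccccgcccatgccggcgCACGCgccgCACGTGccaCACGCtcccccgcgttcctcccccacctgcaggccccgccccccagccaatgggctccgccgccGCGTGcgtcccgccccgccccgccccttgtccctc
Egln3, chr12:54203875-54204124, minus strand: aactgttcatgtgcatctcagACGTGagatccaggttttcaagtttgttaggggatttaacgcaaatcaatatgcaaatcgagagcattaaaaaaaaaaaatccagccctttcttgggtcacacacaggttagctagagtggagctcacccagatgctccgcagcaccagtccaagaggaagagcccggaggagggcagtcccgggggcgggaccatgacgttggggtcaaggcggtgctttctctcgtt
In Slc16a3 the 2 matches begin 27 and 14 bases before the start. Bnip3, which fell, holds GCGTG matches on either side of a CACGTG palindrome, while Ldha holds 5 ACGTG matches and had a log2 fold change of 0.06. A loose pattern for MEF2, a factor of muscle genes, was also searched on both strands, with any base allowed at its middle positions. This pattern stood in 1 of the 27 genes, Ldhb, and in 3.7% of all genes. None of the windows of Pfkm, Pgam2 and Eno3 held it. The bases at both ends of the pattern were fixed, so MEF2 sites with another base there were not counted. The Pgam2 window holds a stretch that differs from the pattern in its last base only. Absence of the pattern is therefore no evidence that these windows lack MEF2 sites. The matches in Ldhb hold G or C in the middle, and matches to so loose a pattern need not be MEF2 motifs.

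Other genes known to be induced by hypoxia were taken from a separate list and moved both ways. Of 26 measured, 9 rose, 4 fell and 13 did not pass, with a median log2 fold change of -0.04. Over all genes 8.72% rose and 6.62% fell. Car12, a carbonic anhydrase of the cell surface, read 7.38, 7.01, 10.53 and 11.01 and rose 11.9-fold (3.58 ± 0.22 SE on the log2 scale, adjusted p = 0.000133), from a level near background. Angptl4, an inhibitor of lipoprotein lipase, rose by 1.75 ± 0.21 SE, the haem oxygenase Hmox1 by 1.52 ± 0.17 SE and the mTOR inhibitor Ddit4 by 1.48 ± 0.18 SE on the log2 scale. Without a pool the call for Car12 was kept each time, that for Angptl4 was lost without either arthritic pool, and those for Hmox1 and Ddit4 were lost without nonarthritic pool 2 and without arthritic pool 2. Hypoxia is not their only inducer: Hmox1 also responds to oxidative stress, Angptl4 to fatty acids and Ddit4 to glucocorticoids. What induced them here was not tested. The other genes that rose, named after their values were seen, were Mif (1.36 on the log2 scale), Plod2 (0.96), P4ha2 (0.83), Plod1 (0.80) and Hilpda (0.78). Vegfa, the angiogenic factor and classical HIF target, read 9.89, 9.91, 9.60 and 9.93, with a log2 fold change of -0.14 (adjusted p = 0.679). Adm, adrenomedullin, was at -0.09 and the oxidase gene Ero1a at -0.12, both uncalled. Car9, the carbonic anhydrase most tied to HIF-1, was at 0.66 (adjusted p = 0.0607) and near background. It passed with arrays centred on their medians (0.0271), after quantile normalization again (0.0311) and after removal of dim genes (0.0346). The 4 that fell, named after their values were seen, were Nrn1, Gbe1, Ppp1r3c and Higd1a; glycogen is the concern of Gbe1, the branching enzyme, and of Ppp1r3c. With the pool number as a block 7 rose and 2 fell, and Ppp1r3c (adjusted p = 0.0736) and Higd1a (0.0815) were no longer called; Higd1a was also lost with arrays centred on their medians (0.0786). With pools left out, 1 (without arthritic pool 2) to 6 genes of the list rose and 0 (without either arthritic pool, with 4 and 6 lower at an unadjusted p under 0.05 in limma) to 2 fell.

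**Figure D4:**
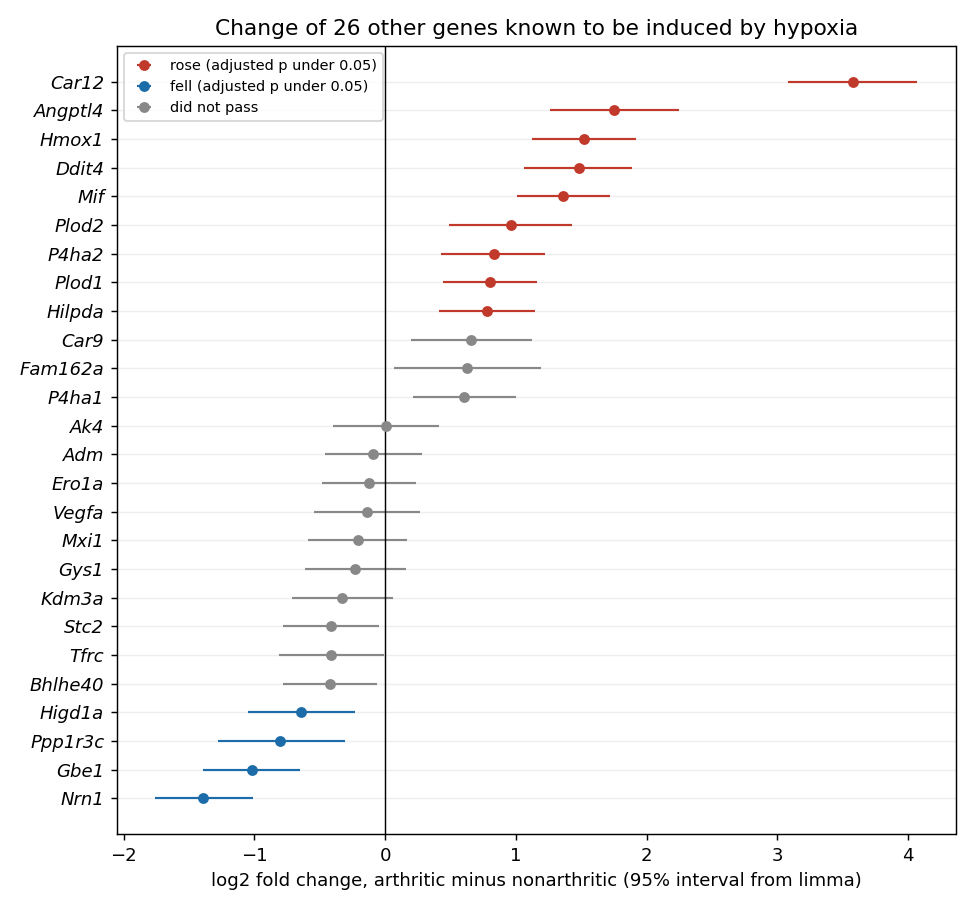
Log2 fold change (horizontal axis, arthritic minus nonarthritic, bars 95% intervals from limma) of 26 further hypoxia-induced genes, sorted by value; red rose, blue fell and grey did not pass. Car12 stands apart at 3.58, while the intervals of Vegfa, Adm and Ero1a include 0.

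Genes of the pyruvate dehydrogenase complex and its kinases changed in both directions. Of 11 genes of pyruvate entry and the pyruvate dehydrogenase complex, 1 rose and 3 fell, where 8.72% of all genes rose and 6.62% fell. Mpc1, of the carrier that brings pyruvate into mitochondria, did not pass (-0.39, adjusted p = 0.177). Pdk3 rose by 0.80 (adjusted p = 0.0140), while Pdk2 (-1.05, adjusted p = 0.00958), Pdk4 (-1.11, adjusted p = 0.0291) and the complex's E3 subunit Dld (-0.66, adjusted p = 0.0303) fell. Pdk4 read 8.78, 9.51, 8.29 and 7.77, and Pdk2 and Pdk4 are the forms typical of muscle. None of these calls was kept with any pool left out. Those for Pdk4 and Dld were also lost with the pool number as a block (adjusted p = 0.117 and 0.0519), that for Pdk4 after quantile normalization again (0.0505) and that for Dld with arrays centred on their medians (0.0567). Of 15 citric acid cycle genes 1 passed, Idh3a, which fell by 1.13 on the log2 scale (adjusted p = 0.00371, called without nonarthritic pool 1 and not without any other pool). The first enzyme of the cycle, Cs, was at 0.14.

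Side routes of glucose were counted from separate lists. Of 13 glycogen genes, 6 fell and 2 rose, where 6.62% of all genes fell and 8.72% rose. Gbe1, which fell, is also counted in the list of hypoxia-induced genes above. Pygm, the muscle glycogen phosphorylase, read 11.58, 12.09, 8.90 and 8.21 and fell by 3.28 ± 0.26 SE on the log2 scale (adjusted p = 0.000320), and Phkg1, the catalytic subunit of muscle phosphorylase kinase, fell by 2.13 (adjusted p = 0.000230). Ugp2, which makes UDP-glucose, fell by 1.24 and Gbe1 by 1.02. The 2 that rose, named after their values were seen, were Pygl, the liver-type phosphorylase (0.65, adjusted p = 0.0427), and Pgm2 (0.66, adjusted p = 0.0295). Both calls were lost with the pool number as a block and with any pool left out. With pools left out, 1 (without arthritic pool 2) to 4 glycogen genes fell. Of 6 gluconeogenesis genes, Pck1, the cytosolic carboxykinase strong in fat cells, fell by 2.73 ± 0.16 SE (adjusted p = 0.000117), also with any pool left out, and Pck2, its mitochondrial counterpart, rose by 0.79 (adjusted p = 0.0211), a call lost with any pool left out. Fbp1, fructose bisphosphatase, fell by 1.81 (adjusted p = 0.0416) from nonarthritic pools that stood apart at 7.15 and 8.98, and it passed without nonarthritic pool 1 but not without any other pool, with the pool number as a block (0.0737) or after quantile normalization again (0.0780).

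None of 5 pentose phosphate genes passed in limma, with 3 higher at an unadjusted p under 0.05, among them Pgd at 0.40 and Pgls at 0.48. Of 12 other glycolysis genes, such as tissue-restricted isoforms, Adpgk, an ADP-dependent glucokinase, rose by 0.68 (adjusted p = 0.0258, and 0.0509 with the pool number as a block). That call was lost with any pool left out.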

How the data were processed

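Total RNA (500 ng per array) from 4 synovial pools was measured on Affymetrix MoGene 2.0 ST arrays, per the labels. Values were used as the authors deposited them, as log2 signals. The submitters' processing notes name RMA, Affymetrix Power Tools and Affymetrix Expression Console, and no version is given in the sources used here. That the scale is log2 was judged from RMA and from the range, 2.89 to 14.27. The number of arrays limits the precision.

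Of 41345 probe sets, 23521 had 1 gene symbol in the platform's table, 1814 several and 16010 none. Each gene was represented by its single-symbol probe set of highest mean, which left 22180 genes. Groups were compared with limma 3.58.1 in R 4.3.3 (lmFit, eBayes, 2-sided, no block; 2 residual and 5.98 prior degrees of freedom). The fit was tested on simulated data. Members, lists and tests were chosen with earlier results of these data known. All measured members are named. Of other pathway lists at most 4 called genes of largest change and 4 uncalled genes in list order are named. Of marker lists at most 4 of highest signal are named. Exceptions are stated or were chosen after their values were seen (Mpo, Elane, Myh7, Tnnt1, Tnni1, Tnnc1, Nrn1, Ppp1r3c, Higd1a, Mif, Plod2, P4ha2, Plod1, Hilpda, Pygl, Pgm2 and Fam162a).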

Additional observations from a re-analysis of the deposited data

How the results depend on the processing

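No result among 70 named genes that was called reversed its direction under any alternative run. Leaving out a pool, the count of genes over the whole array that rose ran from 47 to 637 and of those that fell from 105 to 584, and the counts of members that rose and that fell each ran from 0 to 2. With the pool number as a replicate block, 1216 genes rose, against 1933 without it, and 6 members rose and 5 fell; the numbers pair nothing by label, and differences between pools 1 and 2 correlated at 0.176 between the groups over genes. Centring arrays on their medians moved the median change of all genes from 0.00 to 0.10 and the share of rises among calls from 56.8% to 67.1%, with 9 members rising and 6 falling. The difference of muscle from other isoforms was -2.62 to -2.59 under the other settings. The cause of these shifts was not tested. Leaving out a pool also leaves fewer degrees of freedom.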

Other observations

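Hypoxia-induced genes were compared between the pools of each group. Of the 26 such genes outside the main list, 19 read higher in arthritic pool 2 than in arthritic pool 1, with a median difference of 0.14, against 11016 of all 22180 genes and a median of 0.00. Of the 29 measured glycolysis and hypoxia genes, 18 were higher in arthritic pool 2, and 16 in nonarthritic pool 2. Of both sets Egln3 was higher in arthritic pool 2 by the most, 1.26, followed by Pgam1 at 0.80, the mitochondrial gene Fam162a at 0.72, Bnip3 at 0.61, Ppp1r3c at 0.57 and Slc2a1 at 0.54. Ldha differed by 0.37, Vegfa and Pgk1 by 0.33 each, and Hif1a by 0.09. In the nonarthritic pools, pool 2 was likewise higher for Egln3 by 1.06, Slc2a1 by 0.31, Pgam1 by 0.29, Bnip3 by 0.25 and Pgk1 by 0.24, while Fam162a differed by -0.22. Between the nonarthritic pools, 11 of the 26 genes were higher in pool 2 and 14 in pool 1. Each difference rests on 1 pool against 1 pool, was seen in the data first and has no test. Neutrophil markers were also higher in arthritic pool 2 for 10 of 12 genes, and cell cycle genes for 9 of 9.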
